A study of Mus musculus with 6 samples.

Results

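Cytosolic ribosomal protein genes encode the proteins of the ribosome that translates messenger RNA outside mitochondria. Members were the rows whose identifier maps to a protein-coding symbol of the Rps or Rpl series, to Rplp0, Rplp1 or Rplp2, or to Rpsa, with names of pseudogenes left out. The rule gave 79 genes, 31 of the small and 48 of the large subunit, among 37991 gene rows. Rpl24 is not analysed here, because the identifier that the annotation gives it has no row. Rpl6l and Rps4l match the pattern by name, but the annotation types them as pseudogenes.

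RNA was sequenced from Nestin-GFP+ cells, which carry a fluorescent reporter of Nestin regulatory sequence, sorted from the skin of 3-day-old mouse pups after removal of the epidermis, so that dermis and the white fat under it remained. The 3 mutant mice were Nes-GFP;Nes-Cre;PDGFRα+/[S]D842V, that is, beside the reporter they had Cre driven by Nestin sequence, and on 1 of their Pdgfra copies the change D842V, which is known to make the receptor active without ligand. The label does not say what [S] stands for. The 3 control mice were labelled Nes-GFP+ and, per the protocols, carried the reporter alone, which all 6 mice shared. Cre and the allele therefore cannot be told apart. Each library came from 1 mouse, and the labels name no batch, litter or strain.

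A ribosome joins a small subunit, which reads the messenger RNA, and a large subunit, which links the amino acids. Each protein is needed in about equal number, so cells express these genes together and at high levels. Their messenger RNAs start with a run of pyrimidines, the TOP sequence, through which the kinase mTOR and the RNA-binding protein Larp1 control their translation. Mammalian promoters of the family also often hold the motif CCGGAAG, bound by factors of the ETS family.

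Promoters show this shared layout and where single members depart from it. RefSeq promoter windows on GRCm38.p6, with 250 bases before and 50 bases from the annotated start, were matched for 59 of the 79 genes. A run of at least 8 pyrimidines on the gene's strand touched the 20 bases on either side of the start in 32 of the 59 genes, or 54.2%, against 6399 of all 27025 genes in the table, or 23.7%. The longest such run had a median of 9 bases in the ribosomal protein genes and of 5 bases in all genes. CCGGAAG, sought on both strands over the whole window, stood in 25 of the 59 genes, or 42.4%, against 2683 of all genes, or 9.93%. These matches are descriptions of the letters, not evidence of binding. The sequences shown are the 80 bases from 60 before the start, for the 3 tested genes with the largest and the 3 with the smallest difference between mutant and control cells that had 1 promoter window in the table and could be shown. Capitals mark a run of at least 8 pyrimidines near the start or a CCGGAAG motif on either strand, and the run in Rpl11 continues past the end of the printed stretch.
Rps18, minus strand, chr17:33955646-33955725: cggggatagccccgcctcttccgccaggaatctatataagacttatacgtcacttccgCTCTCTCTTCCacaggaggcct
Rps28, minus strand, chr17:33824543-33824622: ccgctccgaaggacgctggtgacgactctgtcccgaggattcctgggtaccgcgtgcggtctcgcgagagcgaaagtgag
Rpl11, minus strand, chr4:136053374-136053453: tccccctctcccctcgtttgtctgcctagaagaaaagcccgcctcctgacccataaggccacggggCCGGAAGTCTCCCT
Rpl39l, plus strand, chr16:10170168-10170247: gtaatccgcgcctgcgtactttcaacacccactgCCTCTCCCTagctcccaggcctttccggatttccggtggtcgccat
Rpl10, plus strand, chrX:74270756-74270835: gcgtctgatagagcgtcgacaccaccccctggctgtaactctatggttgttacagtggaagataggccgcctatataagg
Rps4x, minus strand, chrX:102189372-102189451: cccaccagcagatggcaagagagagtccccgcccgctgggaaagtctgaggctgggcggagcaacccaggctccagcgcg
The longest run near the annotated start was 11 bases in Rps18, 5 in Rps28 and 17 in Rpl11, against 9 in Rpl39l and 4 in both Rpl10 and Rps4x. The genes with the largest differences thus did not all have a long run at the annotated start. An annotated start can differ from the start these cells use.

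Gene counts came to 15110824 to 18792939 in mutant libraries and 11912469 to 15839701 in control libraries, and 3 counts, the limit that a count of 0 allows, lay at 0.16 to 0.252 CPM (counts scaled to a common library size). Pdgfra had 369, 345 and 358 CPM in mutant libraries, against 856, 819 and 854 CPM in control libraries; gene counts do not tell its alleles apart. All 12 markers of mural cells, the cell type the series is about, passed the filter on low counts, with sums of 1430 to 1926 CPM in mutant and 1679 to 2180 CPM in control libraries. The 10 fibroblast markers, collagens among them, summed to 56934 to 70498 CPM in mutant and 69309 to 77115 CPM in control libraries.

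The ribosomal protein genes as a group took a larger share of the reads in mutant cells. Their share of gene counts was 4.16%, 4.12% and 4.13% in mutant libraries 1 to 3, against 3.33%, 3.08% and 3.19% in control libraries 1 to 3. The groups did not overlap, and the mutant libraries lay closer together than the control libraries. The mean was 4.14% ± 0.0198 in mutant and 3.20% ± 0.123 in control cells (SD, n = 3 each), a difference of 0.936 percentage points. In bulk RNA, a larger share of cells rich in these messages and more of them per cell cannot be told apart.

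Both subunits contributed. Small subunit genes took 1.66% ± 0.0103 of gene counts in mutant and 1.26% ± 0.0546 in control cells (SD, n = 3 each), a ratio of 1.31. Large subunit genes took 2.48% ± 0.0256 in mutant and 1.94% ± 0.0686 in control cells (SD, n = 3 each), a ratio of 1.28. The counts of small over large subunit genes stood at 0.662, 0.681 and 0.666 in mutant libraries, against 0.659, 0.650 and 0.647 in control libraries. These ratios did not overlap between the groups, but the lowest mutant and the highest control library differed by less than the SD of either group.

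**Figure D1:**
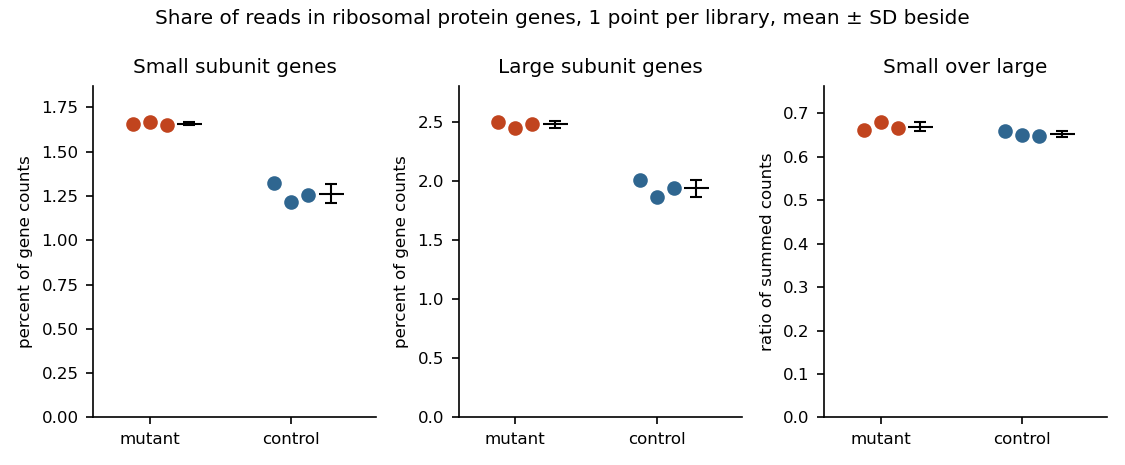
Percent of gene counts in small subunit genes (left) and large subunit genes (middle), and the ratio of their summed counts (right), for mutant and control libraries, with 1 point per library and the mean ± SD beside (n = 3 each). Shares were 1.66% in mutant and 1.26% in control cells for the small subunit, and 2.48% in mutant and 1.94% in control cells for the large subunit, with no overlap.

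Gene by gene, 67 of the 77 tested members were higher in mutant cells and 0 were lower by edgeR's quasi-likelihood test at an adjusted p (Benjamini-Hochberg over all 15035 tested genes) under 0.05. Over all tested genes 8.63% were higher and 9.13% lower. At an unadjusted p under 0.05 there were likewise 0 lower members, and DESeq2 and limma-voom each gave 70 higher and 0 lower. The counts in the small subunit were 28 of 31 and in the large subunit 39 of 46. All 77 log2 fold changes (mutant over control) were above 0, against 50.8% of all tested genes. In 74 of the 77 genes every mutant library lay above every control library, against 19.2% of all tested genes. The median log2 fold change was 0.37, or 1.30-fold, over the 77 genes, 0.40 over the small subunit and 0.36 over the large subunit, against 0.01 over all tested genes. The median standard error of a member was 0.08. The members not tested were Rpl10l, with no count in any library, and Rpl3l, with at most 0.13 CPM.

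The count moved with single libraries and with gene length. Without control replicate 2 the higher genes numbered 45, and without mutant replicate 1 they numbered 51, each with 0 lower and the median between 0.35 and 0.41 over all 6 such fits. Ribosomal protein messages are short, and other short transcripts were also more often called higher than lower in mutant cells. Among the 1638 other tested genes with a transcript of at most 1000 bases, 186 were higher and 52 lower, with a median log2 fold change of 0.13. The fitted trend of expression with transcript length stood, at 500 bases, 0.12, 0.04 and 0.11 above the average of the libraries in mutant libraries 1 to 3 and at -0.05, -0.09 and -0.10 in control libraries 1 to 3 on the log2 scale. With that trend taken out, 35 members were higher and 0 lower with a median of 0.23, against 8.12% of all genes higher. With the trend estimated without the ribosomal protein genes, 42 were higher with a median of 0.25, against 8.29% of all genes. With a trend over the length of all exons taken out, 53 were higher with a median of 0.29, against 8.38% of all genes.

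**Figure D2:**
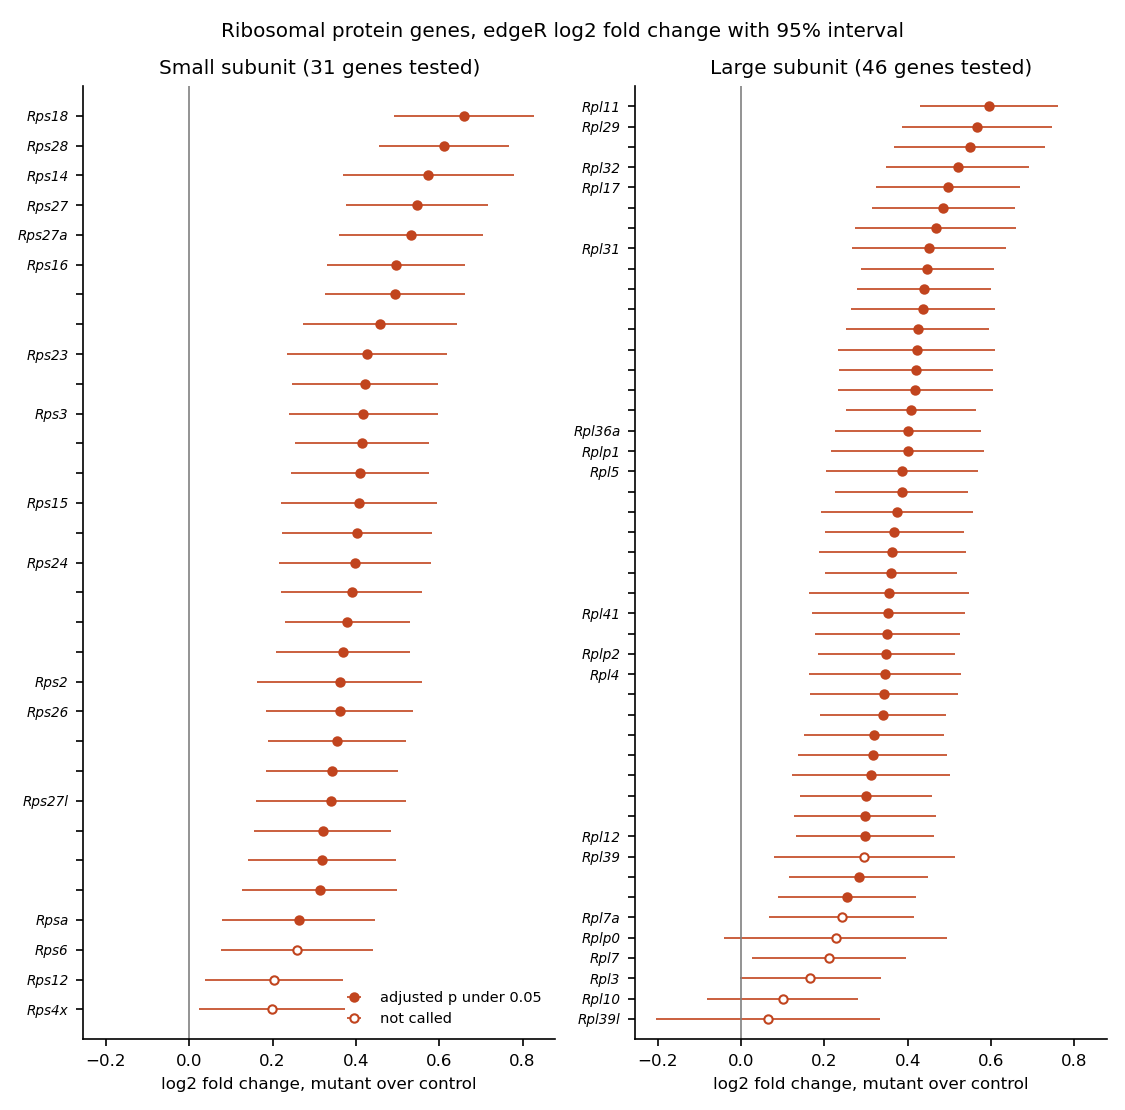
Log2 fold change, mutant over control, with its 95% interval from the edgeR fit, for the 31 small subunit genes (left) and the 46 large subunit genes tested (right), sorted by size, with names at the genes described in the text. Filled points passed an adjusted p of 0.05 and open points did not, and all 77 values lie between 0.07 and 0.66.

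The difference was spread over most members, but its measured size varied. The 77 log2 fold changes ran from 0.07 to 0.66, with quartiles at 0.32 and 0.43. Relative to the mean of the controls, the median member stood at 0.42, 0.35 and 0.36 in mutant libraries 1 to 3 and at 0.07, -0.05 and -0.03 in control libraries 1 to 3 on the log2 scale. Of the 77 members, 77, 76 and 76 lay above the control mean in mutant libraries, against 70, 10 and 30 in control libraries. The SD of the 77 log2 fold changes was 0.11, beside a median standard error of 0.08 for a member. Whether members differed from each other was not tested. Rps18 and Rpl10 were picked from the upper and lower ends of these log2 fold changes. Rps18 stood 0.29, 0.29 and 0.27 above the median member in mutant libraries 1 to 3, and Rpl10 at -0.25, -0.35 and -0.24. The values of a gene all use the same mean of the controls, so their agreement between mutant libraries is partly built in. Across members the log2 fold change had a Spearman correlation of -0.26 with log2 transcript length and of 0.08 with the level per kilobase (77 genes measured in the same libraries). The order of levels per kilobase was nearly the same in both groups, with a Spearman correlation of 0.98 between the means of mutant and control cells.

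**Figure D3:**
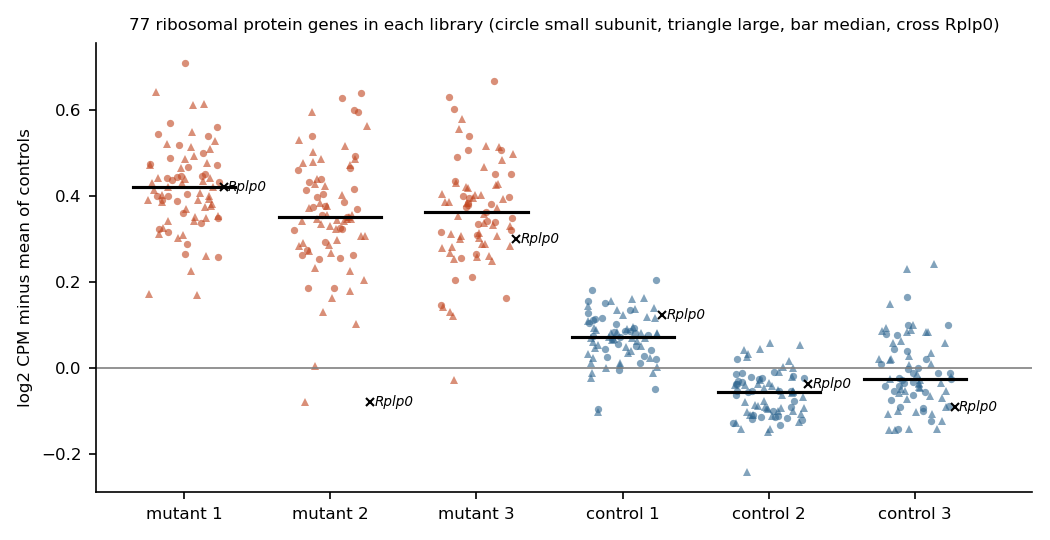
Log2 CPM of each of the 77 tested ribosomal protein genes minus its mean over the 3 control libraries, by library, with circles for small and triangles for large subunit genes, a bar at the median and a cross at Rplp0. The medians stand at 0.42, 0.35 and 0.36 in mutant libraries and at 0.07, -0.05 and -0.03 in control libraries, and Rplp0 in mutant library 2 lies among the control values.

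Rps18, a protein of the head of the small subunit, had the largest difference. It had 540, 515 and 512 CPM in mutant libraries, against 351, 313 and 328 CPM in control libraries. The lowest mutant library was well above the highest control library, with a log2 fold change of 0.66 (95% interval 0.49 to 0.83, edgeR adjusted p = 0.000329). Rps28, which lies where messenger RNA leaves the ribosome, had 315, 323 and 339 CPM in mutant libraries, against 213, 208 and 219 CPM in control libraries. Its log2 fold change was 0.61 (edgeR adjusted p = 0.000329), and again no library overlapped the other group.

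Rps14, a protein of the platform of the small subunit, had 737, 764 and 767 CPM in mutant libraries, against 583, 467 and 474 CPM in control libraries, with a log2 fold change of 0.57 and control library 1 above the other controls. Rps27 (0.55), Rps27a (0.53) and Rps16 (0.50) were other small subunit genes with large differences on the log2 scale. Rps27a is made as a fusion that also supplies ubiquitin. It had 567, 555 and 537 CPM in mutant libraries, against 390, 354 and 404 CPM in control libraries. These 6 small subunit genes were higher in all 20 alternative fits.

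Among large subunit genes, large differences were seen in Rpl11 (0.59), Rpl29 (0.57), Rpl32 (0.52) and Rpl17 (0.50), all higher in all 20 alternative fits as well. Rpl11 and Rpl5 bind the small ribosomal RNA of the large subunit together, and that particle also holds the p53 inhibitor Mdm2 when ribosome assembly is disturbed. Rpl11 had 596, 564 and 570 CPM in mutant libraries, against 401, 368 and 376 CPM in control libraries (edgeR adjusted p = 0.000516). Rpl5 had 913, 831 and 828 CPM in mutant libraries, against 661, 612 and 695 CPM in control libraries, with a log2 fold change of 0.39. Neither gene's groups overlapped. The call of Rpl5 was lost without control replicate 2, with an edgeR adjusted p of 0.0545.

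Genes of the decoding and messenger RNA channels were higher in mutant cells, as were 67 of the 77 tested members. Rps3 and Rps2 line the entry of the messenger RNA. Rps3 had 770, 725 and 688 CPM in mutant libraries, against 571, 552 and 511 CPM in control libraries, with a log2 fold change of 0.42. Rps2 had 1032, 911 and 990 CPM in mutant libraries, against 834, 752 and 697 CPM in control libraries, with a log2 fold change of 0.36. No library of either gene overlapped the other group. The call of Rps2 was lost without mutant replicate 1, mutant replicate 3, control replicate 2 or control replicate 3 (largest edgeR adjusted p 0.0801) and with the transcript length trend taken out.

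Rps23 and Rps15, at the decoding centre, differed by 0.43 and 0.41 on the log2 scale. Rps23 had 578, 574 and 537 CPM in mutant libraries, against 465, 381 and 410 CPM in control libraries. The call of Rps15 was lost in 2 of the fits with a length trend taken out (largest adjusted p 0.0625). At the exit of the messenger RNA, Rps26 (0.36) and Rpsa (0.26) were higher beside Rps28. Rpsa, also known as the laminin receptor, was the called member nearest the threshold, with 948, 914 and 882 CPM in mutant libraries, against 825, 752 and 711 CPM in control libraries (edgeR adjusted p = 0.0497). Its call held in 11 of the 20 alternative fits; it was lost without each library other than control replicate 1, with a largest adjusted p of 0.165 without control replicate 3. The call of Rps26 was lost without control replicate 2 (adjusted p = 0.0545) and with the transcript length trend taken out.

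Rps6, the protein phosphorylated by S6 kinase, was the gene just outside the threshold. It had 738, 703 and 680 CPM in mutant libraries, against 634, 545 and 594 CPM in control libraries. The groups did not overlap, the log2 fold change was 0.26, and the edgeR adjusted p was 0.0502. Rps6 passed the threshold in 11 of the 20 alternative fits, among them DESeq2, limma-voom and the fit without control replicate 1 (adjusted p = 0.0251). It did not pass with RLE scaling, with any length trend taken out, or without any library other than control replicate 1. Its lowest log2 fold change over these fits was 0.14.

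The P stalk of the large subunit, which recruits elongation factors, is built from Rplp0, Rplp1 and Rplp2 on a base that includes Rpl12. Rplp1 had 620, 576 and 615 CPM in mutant libraries, against 487, 471 and 414 CPM in control libraries, with a log2 fold change of 0.40. Rplp2 (0.35) and Rpl12 (0.30) were also higher, and neither had libraries that overlapped. Rplp0, the member with the most reads, had 1615, 1141 and 1486 CPM in mutant libraries, against 1314, 1177 and 1134 CPM in control libraries. Mutant library 2 lay below control libraries 1 and 2, and Rplp0 was not called (log2 fold change 0.23, edgeR adjusted p = 0.221). Without mutant replicate 2 its log2 fold change was 0.36 with an adjusted p of 0.0364. That fit leaves out the low library, and it was the only 1 of the 20 alternative fits that called Rplp0. The calls of Rplp1 and Rplp2 were each lost in 2 fits with a length trend taken out. That of Rpl12 was lost without mutant replicate 1, mutant replicate 3, control replicate 2 or control replicate 3 (largest adjusted p 0.0861) and in both fits with the transcript length trend taken out.

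Of 9 proteins that line or surround the tunnel through which the new chain leaves, 8 were higher, with a median log2 fold change of 0.35. Both were near the values of the whole family, 67 of 77 and 0.37. Over all tested genes 8.63% were higher. Rpl17, at the tunnel, differed most (0.50). Rpl4, whose loop reaches into the tunnel, had 1267, 1155 and 1163 CPM in mutant libraries, against 976, 883 and 963 CPM in control libraries, with a log2 fold change of 0.34. Its call was lost without mutant replicate 1 or control replicate 2, with a largest adjusted p of 0.0800. Rpl39 was not called: it had 412, 437 and 427 CPM in mutant libraries, against 320, 312 and 406 CPM in control libraries (log2 fold change 0.30, edgeR adjusted p = 0.0588). Control library 3 was far above the other controls, and without control replicate 3 the adjusted p was 0.0134 and the log2 fold change 0.43. That fit leaves out the high control, and Rpl39 was called in 6 of the 20 alternative fits. In this list 4 genes were higher when control replicate 2 was left out, and 5 when mutant replicate 1 was left out or any length trend was taken out.

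Levels per kilobase of transcript were highest for Rpl41, which encodes the smallest protein of the ribosome. Rpl41 averaged 2126 CPM per kilobase in mutant and 1664 CPM per kilobase in control cells, and in CPM it had 987, 850 and 950 in mutant libraries, against 721, 754 and 706 in control libraries. Its log2 fold change was 0.35, and its call was lost without mutant replicate 1, mutant replicate 3 or control replicate 3 (largest adjusted p of these 0.0589) and with each length trend taken out (largest 0.164). Rps24 came next with 1432 CPM per kilobase in mutant and 1086 CPM per kilobase in control cells. In CPM, Rps24 had 692, 672 and 646 in mutant libraries, against 517, 464 and 544 in control libraries, with a log2 fold change of 0.40 and a call lost with the transcript length trend taken out (largest adjusted p 0.0933). By the mean over both groups Rplp1 followed, with 1210 CPM per kilobase in mutant and 917 CPM per kilobase in control cells. Rps14 was above it in mutant cells (1266 CPM per kilobase) and below it in control cells (851 CPM per kilobase). The neighbours in this order, such as Rplp1, Rps14 and Rpl31, lay close together per kilobase over both groups and were not tested against each other.

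The 10 members that were not called were Rpl10, Rps6, Rps4x, Rpl39l, Rpl7, Rpl3, Rps12, Rpl7a, Rplp0 and Rpl39. Of these, Rpl10, Rpl3, Rpl39l, Rpl7, Rps12 and Rps4x were called in none of the 20 alternative fits either. Rpl10, which takes part in the joining of the subunits, had 735, 654 and 709 CPM in mutant libraries, against 690, 611 and 656 CPM in control libraries. The groups overlapped, and the log2 fold change was 0.10 (edgeR adjusted p = 0.438). Rps4x had 876, 829 and 807 CPM in mutant libraries, against 751, 685 and 752 CPM in control libraries, with a log2 fold change of 0.20 and no overlap (edgeR adjusted p = 0.107). Rpl3, a protein near the site of peptide bond formation, differed by 0.17 and Rps12 by 0.20 on the log2 scale. A p above the threshold does not show that these genes were equal in the groups. Rpl10, Rps4x, Rpl39 and Rpl36a lie on the X chromosome, and of these 4 only Rpl36a was called (0.40, edgeR adjusted p = 0.00694). The call of Rpl36a was lost with the transcript length trend taken out (adjusted p = 0.0706). All 4 log2 fold changes were above 0. These 4 genes are too few to set apart from the 67 of 77 members called, or from the 8.63% higher over all tested genes.

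Rpl3l, Rpl10l, Rpl39l and Rps27l, copies of other ribosomal protein genes, were low beside their parent genes in these cells. Rpl3l, known from heart and skeletal muscle, and Rpl10l, known from testis, were at or near 0. Rpl39l, best known from testis, had 22.2, 21.2 and 19.4 CPM in mutant libraries, against 19.8, 16.7 and 23.1 CPM in control libraries. The groups overlapped (log2 fold change 0.07, edgeR adjusted p = 0.751). Rps27l, a copy of Rps27 that is a p53 target, had 60.8, 56.4 and 54.1 CPM in mutant libraries, against 42.1, 44.7 and 48.3 CPM in control libraries. Its log2 fold change was 0.34 (edgeR adjusted p = 0.016). The call was lost without mutant replicate 1 (0.0651), without control replicate 2 (0.0567) and with each length trend taken out (largest 0.222). Its parent gene Rps27 had 317, 353 and 332 CPM in mutant libraries, against 232, 213 and 241 CPM in control libraries, with a log2 fold change of 0.55.

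Ribosomal proteins that the naming pattern leaves out included both called and uncalled genes. Fau, which encodes Rps30 fused to a ubiquitin-like protein, had 399, 394 and 395 CPM in mutant libraries, against 280, 269 and 256 CPM in control libraries. Its log2 fold change was 0.56 (edgeR adjusted p = 0.000563), among the larger values of the family. Rack1, a signalling scaffold on the small subunit, was higher by 0.31, and its call was lost without mutant replicate 1, mutant replicate 3, control replicate 2 or control replicate 3 (largest adjusted p 0.0964). Rps3a1 was higher by 0.27, and its call was lost without each library other than control replicate 1 (largest adjusted p of these 0.171) and with each length trend taken out. The paralogs Rpl22l1 (-0.04), Rpl7l1 (-0.14) and Rpl36al (0.18) were not called. This list held 9 tested genes, not all named here, with 3 higher and 0 lower, against 8.63% and 9.13% of all tested genes. Of the 9 log2 fold changes 5 were above 0, and the lowest was -0.19.

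Other messages known to carry a TOP sequence were higher in part. Of 19 tested, Fau and Rack1 included, 9 were higher and 0 lower, against 8.63% higher and 9.13% lower over all tested genes. The median log2 fold change was 0.26, beside 0.01 over all tested genes. At an unadjusted p under 0.05, 13 were higher and 0 lower. Eef1b2, an exchange factor of elongation, had 403, 382 and 378 CPM in mutant libraries, against 298, 269 and 297 CPM in control libraries (log2 fold change 0.43, edgeR adjusted p = 0.00366). Eif4b, a cofactor of the helicase of initiation, had 457, 452 and 442 CPM in mutant libraries, against 353, 343 and 367 CPM in control libraries (log2 fold change 0.35). No library of either gene overlapped the other group, and both were called in all 20 alternative fits. The count of this list was 3 with control replicate 2 left out and 5 with mutant replicate 1 or mutant replicate 3 left out. With the transcript length trend taken out, 6 were higher with a median of 0.20. With the exon length trend taken out, 8 were higher with a median of 0.18.

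Of 38 initiation factors, 7 were higher and 2 lower, with a median of 0.08, against 8.63% higher and 9.13% lower over all tested genes. Eif4b and Eif3f (0.33), a subunit of the scaffold Eif3, were among the higher genes, and Eif4a2 (-0.33), a helicase, was the lower one with the larger change. The higher genes numbered 1 when control replicate 2 was left out, 2 for mutant replicate 1, 3 for mutant replicate 3 and 4 for mutant replicate 2. The lower ones numbered 1 when control replicate 2 was left out and 0 for mutant replicate 1, mutant replicate 3 or control replicate 3. With the transcript length trend taken out, 2 were higher and 4 lower. The call of Eif3f was lost without control replicate 2 (adjusted p = 0.0616), and that of Eif4a2 without mutant replicate 1, mutant replicate 3, control replicate 2 or control replicate 3 (largest 0.0700). Of 10 elongation and release factors, 2 were higher, Eef1b2 and Eef2, and 2 lower, Abce1 and Gspt1, with a median of -0.06. Abce1, which recycles ribosomes after termination, had 94.7, 92.3 and 80.2 CPM in mutant libraries, against 116, 118 and 132 CPM in control libraries (log2 fold change -0.45, edgeR adjusted p = 0.00496), with no overlap. The lower factors of this list numbered 1 without mutant replicate 2, mutant replicate 3, control replicate 2 or control replicate 3, and the higher ones 1 without mutant replicate 1, mutant replicate 3, control replicate 2 or control replicate 3.

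Genes for assembling ribosomes did not follow the ribosomal protein genes. Of 45 tested, 0 were higher and 6 lower in mutant cells, against 8.63% higher and 9.13% lower over all tested genes. The median log2 fold change was -0.04. At an unadjusted p under 0.05, 4 were higher and 11 lower, and DESeq2 and limma-voom called 0 higher and 6 lower each. Tsr1, a factor of small subunit maturation, had 53.3, 44.0 and 44.2 CPM in mutant libraries, against 63.4, 61.6 and 66.4 CPM in control libraries (log2 fold change -0.44, edgeR adjusted p = 0.00728). Noc3l, a factor of the large subunit, had 16.6, 16.8 and 15.4 CPM in mutant libraries, against 24.7, 20.5 and 27.0 CPM in control libraries (log2 fold change -0.57, edgeR adjusted p = 0.00709). Nop2, which methylates ribosomal RNA, was lower by the same test (-0.44). Groups did not overlap in any of these 3 genes, and all 3 were called in all 20 alternative fits. The lower genes numbered 4 to 7 over the alternative fits, with 4 in each fit with a length trend taken out, and the higher genes 0 throughout. In a list of this size, these lower counts are near the 9.13% lower over all tested genes.

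**Figure D4:**
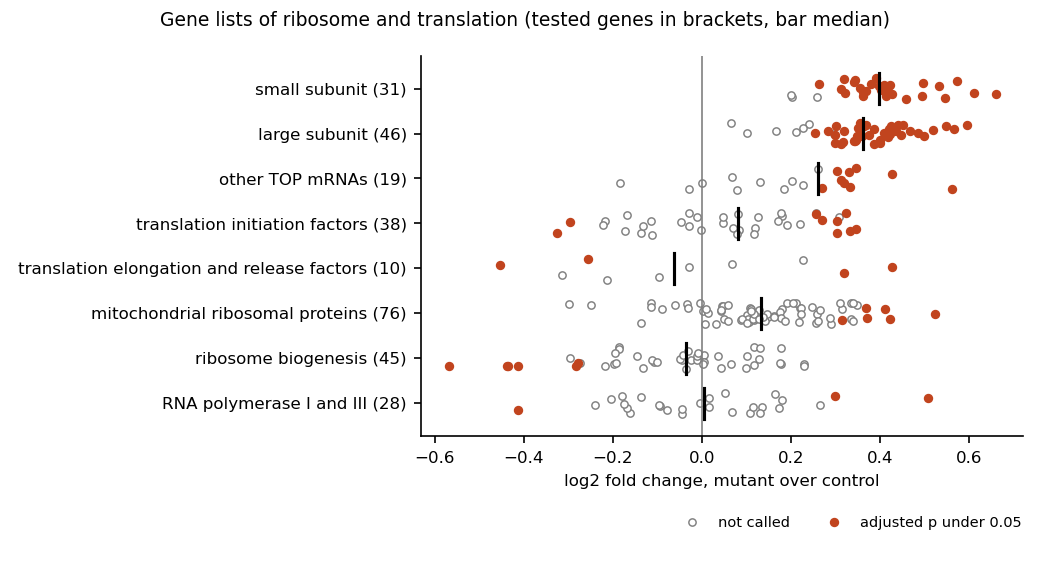
Log2 fold change, mutant over control, of every tested gene in lists of ribosome and translation genes, with filled points at an adjusted p under 0.05, open points otherwise and a bar at the list's median. The median is 0.40 for small and 0.36 for large subunit genes, 0.26 for other TOP messages and -0.04 for ribosome biogenesis, and lists overlap in some genes. All values are from the main fit, with no length trend taken out.

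RNA polymerases I and III, which make the ribosomal and transfer RNAs, showed 2 higher and 1 lower gene of 28 with a median of 0.00. The shares called were not above the 8.63% higher and 9.13% lower of all tested genes. Maf1, a repressor of RNA polymerase III, had 62.7, 79.5 and 64.7 CPM in mutant libraries, against 51.0, 49.9 and 44.6 CPM in control libraries (log2 fold change 0.51, edgeR adjusted p = 0.00598), with no overlap. Ubtf, a factor of RNA polymerase I, was higher by 0.30, and Polr3b, a subunit of RNA polymerase III, was lower (-0.41). The call of Ubtf was lost without mutant replicate 1, mutant replicate 2, control replicate 2 or control replicate 3 (largest adjusted p 0.0730), and that of Polr3b without mutant replicate 2, mutant replicate 3, control replicate 2 or control replicate 3 and with the transcript length trend taken out (largest 0.119).

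Among 19 regulators of ribosomal protein synthesis, 2 were higher and 5 lower, against 8.63% higher and 9.13% lower over all tested genes. The median was -0.10. The higher genes numbered 1, without Akt1, when any library other than control replicate 1 was left out. Mycl, of the Myc family of transcription factors, had 29.8, 36.5 and 36.0 CPM in mutant libraries, against 18.9, 21.7 and 21.7 CPM in control libraries (log2 fold change 0.72, edgeR adjusted p = 0.00121). Mycn, of the same family, averaged 11.4 ± 1.07 CPM in mutant and 17.3 ± 2.17 CPM in control cells (SD, n = 3 each; log2 fold change -0.60, edgeR adjusted p = 0.00889). Neither overlapped. Mxd1, which competes with Myc for its partner Max, was lower (-0.65, edgeR adjusted p = 0.00244). Max and Trp53, the gene of p53, were also lower, in the main fit and in all 20 alternative fits. Over those 20 fits the log2 fold change was -0.40 to -0.34 for Max and -0.47 to -0.33 for Trp53. Myc itself had 75.3 ± 6.73 CPM in mutant and 82.3 ± 11.4 CPM in control cells (SD, n = 3 each) and was not called (edgeR adjusted p = 0.429), nor were Mtor (-0.12) and Larp1 (-0.05).

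Mitochondrial ribosomal proteins, which serve the separate ribosome of mitochondria, showed 6 higher and 0 lower genes of 76, with a median of 0.13. The share called higher was near the 8.63% of all tested genes. At an unadjusted edgeR p under 0.05, 19 were higher and 0 lower. Of the 76 log2 fold changes 66 were above 0, against 50.8% of all tested genes. With the transcript length trend taken out, the median was 0.08. Mrpl9 had 38.9, 39.4 and 40.8 CPM in mutant libraries, against 32.2, 31.3 and 26.2 CPM in control libraries (log2 fold change 0.41, edgeR adjusted p = 0.0113), with no overlap. The count of genes called higher was 1 with control replicate 3 left out and 2 for mutant replicate 1. It was 4 for mutant replicate 2 or control replicate 2 and 10 for control replicate 1. By DESeq2 it was 2, and with either length trend taken out it was 3.

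Reads of ribosomal protein genes can be split with near-identical pseudogenes, so the counts of such pairs are uncertain. By sequence, 913 pseudogene rows were matched to 75 members at an identity of at least 80% over at least 50% of the length, and 294 of the rows held no count. Together these rows held 0.645 ± 0.064 counts per 100 counts of ribosomal protein genes in mutant and 0.538 ± 0.0852 in control libraries (SD, n = 3 each), and the groups overlapped. With all these reads added to their members, 68 members were higher and 0 lower. For 12 members the pseudogene rows held over 1% of the reads of gene and pseudogenes together, and for 0 members over 5%. Exons of another annotated gene overlapped those of 36 members, 15 of them with a protein-coding gene. Whether reads were counted by strand was not given in the sources used here, and reads of such pairs cannot be told apart.

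A few pseudogene rows differed between libraries by far more than their parent genes. Gm8730, 98.7% identical to Rplp0, had 1.54, 60.6 and 1.42 CPM in mutant libraries, against 0.704, 1.42 and 1.79 CPM in control libraries. Mutant library 2 thus held nearly all reads of this row. With the reads of all matched pseudogene rows added to their parents, Rplp0 was still not called (log2 fold change 0.25, edgeR adjusted p = 0.137). Rpsa-ps10, 99.3% identical to Rpsa, had 57.1, 0.909 and 54.9 CPM in mutant libraries, against 0.192, 0.419 and 0.384 CPM in control libraries. Mutant library 2 lay near the controls, and the row was not called by edgeR (adjusted p = 0.107). It was called by DESeq2, with the replicate number as a block and without mutant replicate 2. Rps18-ps3, 99.3% identical to Rps18, had 0.603, 0.325 and 0.264 CPM in mutant libraries, against 18.9, 16.3 and 15.2 CPM in control libraries, opposite in direction to Rps18. These reads were few beside the 313 to 540 CPM of Rps18 itself.

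Other pseudogene rows were uneven within both groups. Rps13-ps1 had 0.268, 0.325 and 11.9 CPM in mutant libraries, against 0.256, 0 and 10.1 CPM in control libraries, so that mutant library 3 and control library 3 stood apart together. Rps15a-ps6 had 2.41, 2.40 and 10.4 CPM in mutant libraries, against 3.26, 1.93 and 9.27 CPM in control libraries, with the same libraries high. Gm10709, 99.2% identical to Rpl29, moved with its parent and had 5.76, 5.52 and 5.75 CPM in mutant libraries, against 1.79, 2.43 and 2.05 CPM in control libraries (log2 fold change 1.45, edgeR adjusted p = 0.00075). Gm10653, 91.3% identical to Rps2, moved against it, with 3.75, 2.86 and 4.01 CPM in mutant libraries, against 8.12, 7.63 and 7.35 CPM in control libraries (log2 fold change -1.12, edgeR adjusted p = 0.00194). Over all matched rows tested, 8 of 53 were higher and 6 lower, against 8.63% higher and 9.13% lower over all tested genes. These rows were chosen for mention after their values were seen.

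**Figure D5:**
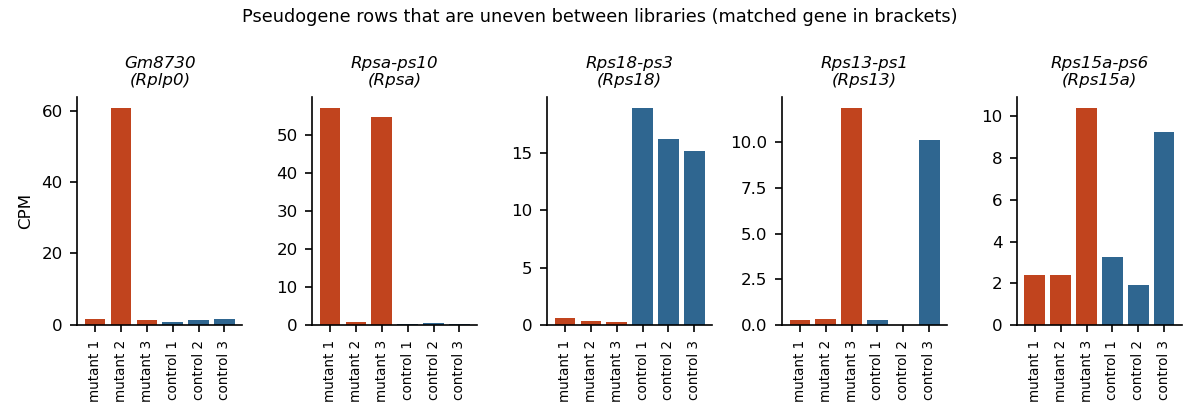
CPM of 5 pseudogene rows in each library, mutant libraries left and control libraries right, with the matched ribosomal protein gene in brackets and a separate vertical scale in each panel. Gm8730 is high in mutant library 2 only, Rpsa-ps10 in mutant libraries 1 and 3, Rps18-ps3 in the 3 control libraries, and Rps13-ps1 and Rps15a-ps6 in library 3 of each group.

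Several lists of markers of other cell types differed between the groups beside these results. The shares to read their counts against are 8.63% higher and 9.13% lower over all tested genes. In lists this short, a single call is not set apart from these shares. Of 16 markers of skeletal muscle and satellite cells 12 were higher and 0 lower in mutant cells, with sums of 245 to 360 CPM in mutant and 115 to 131 CPM in control libraries. Of 8 keratinocyte markers 5 were higher (2 without mutant replicate 1, mutant replicate 3 or control replicate 3) and 0 lower, with sums of 811 to 1000 CPM in mutant and 377 to 651 CPM in control libraries. Of 13 endothelial markers 6 were higher and 0 lower, with sums of 363 to 498 CPM in mutant and 275 to 294 CPM in control libraries. Every marker of these 3 lists was detected, Lor lowest among those of keratinocytes. Of 16 markers of proliferating cells 0 were higher and 6 lower (2 lower without mutant replicate 2, mutant replicate 3, control replicate 2 or control replicate 3), with sums of 1394 to 1436 CPM in mutant and 1555 to 1684 CPM in control libraries. Of 5 tested mast cell markers 3 were higher and 1, Kit, was lower (0 lower without mutant replicate 1, control replicate 2 or control replicate 3), with sums of 106 to 124 CPM in mutant and 79.4 to 97.1 CPM in control libraries, and Fcer1a was at or near 0 in both groups. Of 8 tested adipocyte markers 1 was higher (0 without control replicate 1 or control replicate 2) and 0 lower, with sums of 769 to 1467 CPM in mutant and 551 to 756 CPM in control libraries, and Lep was at 0 in all mutant libraries. Of 7 Schwann cell markers 0 were higher and 1 lower, with sums of 158 to 199 CPM in mutant and 206 to 239 CPM in control libraries. Of 2 tested red cell markers 0 were called (2 higher without control replicate 2 and 1 without control replicate 1), with sums of 6.10 to 13.8 CPM in mutant and 1.53 to 5.11 CPM in control libraries. The summed macrophage and melanocyte markers overlapped between the groups. The part of all these lists in the difference of the ribosomal protein genes, which summed to 40436 to 42703 CPM in mutant and 30767 to 33707 CPM in control libraries, was not tested. The part of the length trend beyond the values above was not tested either.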

How the data were processed

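Per the labels' protocols, total RNA of sorted Nestin-GFP+ cells from 3 mutant and 3 control mice was made into indexed libraries that were pooled for sequencing. The authors deposited whole-number read counts per gene, 1 file per library. The submitters' processing notes list the build mm9 and, with no role or order, cutadapt 1.1, FastQC, HTSeq 0.5.3, TopHat2 2.0.4 and DESeq2. Beside its 37991 genes each file had 5 summary rows without a gene, with 36.9% to 41.7% of the listed reads, and these were kept out of library sizes and tests. Gene counts per library ran from 11912469 to 18792939. Limits from 3 counts cover counting error only, because PCR copies of a molecule could not be recognised.

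Symbols, gene types and transcript lengths came from GENCODE M21 on GRCm38, a later build than mm9, so no coordinate of the files is printed; symbols matched 32938 rows, or 86.7%. Promoters came from RefSeq on GRCm38.p6. Transcript length was that of the shortest protein-coding transcript of the consensus coding set, or else of a principal transcript. Pseudogene rows were matched to members with blastn.

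After filterByExpr (minimum count 10, minimum total 15) and TMM scaling, counts of mutant and control libraries were compared with the robust quasi-likelihood test of edgeR 4.0.16 (R 4.3.3), with no covariate, with Benjamini-Hochberg adjustment over all 15035 tested genes and a threshold of 0.05. CPM values use the TMM library sizes. An exact permutation of 3 against 3 libraries was not used. The procedure was checked on simulated counts, whose changes were larger than those of most members and which held no length trend. That check therefore does not cover changes as small as those of most members. Alternatives were other scalings (RLE, upper quartile, total count, TMM without the members), no filter, DESeq2 1.42.0, limma-voom (limma 3.58.1) with and without cyclic loess, the replicate number as a block, length trends (lowess, span 0.3) taken out, pseudogene reads added, and each library left out. The transcript length trends, the addition of all matched pseudogenes and TMM without the members were chosen after seeing the data.

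Members named were the called ones, up to 25 by smallest adjusted p, the 3 most abundant per kilobase in each subunit, and those of lists of roles (P stalk, 5S particle, exit tunnel, entry, decoding, exit, paralogs and their parents). Lists of other genes gave up to 3 called genes each by smallest adjusted p. Rpl7a, Rpl36a and the other genes named beyond this rule were chosen after their values were seen. The members and lists were chosen with earlier results of these data known. Replicates are separate mice per the labels. A few genes that the rule names are not reported here.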

Additional observations from a re-analysis of the deposited data

Results flagged for a closer look

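The share of listed reads marked as not uniquely aligned, which no comparison of genes uses, was higher in every mutant library. It was 6.25%, 6.17% and 6.52% of the listed reads in mutant libraries, against 5.06%, 5.33% and 5.79% in control libraries. The means were 6.31% ± 0.183 in mutant and 5.39% ± 0.368 in control libraries (SD, n = 3 each). Ribosomal protein genes have many near-identical pseudogenes, and how many of these reads come from them was not tested.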

How the results depend on the processing

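With an exon length trend taken out, the median log2 fold change of the 77 members (0.37) moved beyond the spread between libraries, to 0.29, while the count of higher members (67) became 53, within 1.5 times. Both moved further with a transcript length trend taken out, to 0.23 and 35, and with that trend estimated without the members, to 0.25 and 42. With each library left out in turn, 45 to 69 members were higher and 0 lower, the median was 0.35 to 0.41, and the share of reads differed by 0.877 to 1.00 percentage points. The counts over all tested genes were 658 to 1199 higher and 753 to 1500 lower in the same fits. The other scalings, filters, tests and pseudogene additions gave 66 to 70 higher members and 0 lower. Of the 67 called members, 32 were called in all 20 alternative fits and 44 with each library left out, and 75 of the 77 had a log2 fold change above 0 in all of them, the exceptions being Rpl10 (lowest -0.03) and Rpl39l (lowest -0.11). Rpl3l and Rpl10l did not pass the filter on low counts.

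Replicate numbers are shared between the groups in the labels, but correlations of same-numbered deviations were 0.12, -0.03 and -0.09, so the numbers were used as names only. The names of the deposited mutant files carry other numbers than the titles, and the block follows the titles. With the replicate number as a block, 70 members were higher and 0 lower, and the median was 0.38.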
